A study of Mus musculus with 4 samples.

Results

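The genes described are those of MHC class II antigen presentation in mouse growth plate chondrocytes: the chaperone H2-DM (H2-DMa, H2-DMb1 and H2-DMb2), the classical chains H2-Aa, H2-Ab1 and H2-Eb1, the modulator H2-DO (H2-Oa and H2-Ob), the invariant chain Cd74 and the transactivator Ciita. A probe set, the group of oligonucleotides that an Affymetrix array uses for one transcript, was taken as a member when the platform annotation named exactly one of these 10 genes. This gave 19 probe sets of 9 genes, out of 45037 non-control probe sets and 18193 genes with a probe set of their own. H2-DMb1 had none, since both probe sets that name it also name H2-DMb2, and these are given beside the members. The genes were picked because the DM genes were low in both Ift88-deleted arrays, so the difference between genotypes is described for all members and is not tested for any of them.

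The study compared the proliferative zone, the layer of dividing cells, of 2 control and 2 Ift88-deleted samples, each on 1 array. The controls are labelled wild-type and the mutants Col2aCre;Ift88fl/fl, in which Cre driven from the Col2a promoter deletes Ift88, a gene needed to build the primary cilium, in cartilage. All mice were on the C57BL/6 background and 7 days old, and whether the controls carried the Cre or a floxed allele is not given in the sources used here. Each sample was dissected under the labels' protocol with a needle out of 40 µm bone sections (tibia and femur), and 50 ng of RNA went through 2 cycles of amplification.

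Class II molecules are pairs of an alpha and a beta chain that display peptides from endosomes to helper T cells. They are assembled with Cd74, whose remnant in the groove is removed by DM, while DO restrains DM. In dendritic cells, macrophages and B cells the classical chains, DM and Cd74 are switched on together by Ciita. It acts through factors bound to the X and Y boxes of their promoters. Other cells, chondrocytes among them, express class II mainly after interferon-gamma.

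The upstream sequences show what the DM beta genes share with the classical chains. RefSeq windows (GRCm38.p6) were found for 7 of the 10 members. The 150 bases before the start are given 5′ to 3′ for both DM beta genes, since 2 probe sets of H2-DMb2 showed the largest decrease of any member, and for one classical beta and one alpha chain. Capitals mark the Y box core GATTGG on either strand and the X stretch AACNGATGATGCT, the longest run that the upstream windows of H2-DMb1, H2-DMb2 and H2-Eb1 share with at most 1 position differing (N). The 2 motifs do not overlap.
H2-DMb1 (chr17:34153041-34153190, plus strand): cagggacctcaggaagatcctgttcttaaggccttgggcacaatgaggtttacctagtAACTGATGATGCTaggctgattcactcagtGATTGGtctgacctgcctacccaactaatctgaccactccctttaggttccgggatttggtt
H2-DMb2 (chr17:34145099-34145248, plus strand): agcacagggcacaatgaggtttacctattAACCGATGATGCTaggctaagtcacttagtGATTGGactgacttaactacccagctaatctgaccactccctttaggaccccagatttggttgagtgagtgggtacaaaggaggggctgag
H2-Eb1 (chr17:34305717-34305866, plus strand): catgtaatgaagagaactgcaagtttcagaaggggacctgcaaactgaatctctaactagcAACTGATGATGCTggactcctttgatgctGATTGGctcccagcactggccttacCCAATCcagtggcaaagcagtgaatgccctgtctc
H2-Aa (chr17:34287824-34287973, minus strand): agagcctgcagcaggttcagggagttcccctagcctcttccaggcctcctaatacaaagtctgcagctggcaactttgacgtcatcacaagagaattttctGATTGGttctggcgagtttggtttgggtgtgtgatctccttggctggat

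The X stretch stood 17 bases before the Y core in both DM beta genes and 16 bases before it in H2-Eb1. Over the 250 bases before the start it occurred, on either strand, in 4 of 32851 windows (0.0122%), of which H2-DMb1, H2-DMb2 and H2-Eb1 were 3. Its letters come from those 3 windows, so their matches are given by its construction, and the remaining match was Gm36553. GATTGG was found in 14.6% of all windows and in 7 of the 8 windows of members. The one without it was one of the 2 windows of H2-DMa, which in neither window held the X stretch, and this says only that the letters are not there. The upstream 250 bases of H2-DMb1 and H2-DMb2 were identical at 174 of 209 aligned positions (83.3%).

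Values are log2 after RMA, with each probe set's median over the 4 arrays subtracted, so they show differences between arrays and no level. The number steps of the deposited values still place a probe set in a coarse class by the lowest of its original log2 values. Of all probe sets 24.89% were placed in the class of 8 or more, 56.44% in that of 4 to 8 and 17.68% in that of 2 to 4. In this way 20 of 22 probe sets of 12 chondrocyte marker genes, Col2a1, Acan and Sox9 among them, were in the brightest class, as far as the tissue can be checked here. So were 5 of 15 pan-leukocyte, 4 of 10 dendritic cell, 4 of 8 osteoclast and 2 of 5 neutrophil marker probe sets. The counts were 2 of 17 for macrophage, 2 of 4 for T cell, 1 of 6 for erythroid, 1 of 6 for endothelial and 0 of 7 for B cell markers. The brightest class held 24.89% of all probe sets. Of these, 16.04% also fitted the next coarser number step, so a placement can be too bright. The class thus shows neither that other cells were present nor that the samples held chondrocytes alone. Ift88 itself differed by 0.08 (SE 0.166, adjusted p = 1, limma) in its 1 probe set, whose place relative to the deleted part was not analysed here. Over all 45037 probe sets limma called 20 (0.0444%) at an adjusted p under 0.05, of which 10 (0.0222%) were lower and 10 (0.0222%) higher in the mutant. Leaving out control 1, control 2, mutant 1 or mutant 2 gave 9, 11, 10 or 12. The SD of the difference over probe sets was 0.381 between both controls, 0.279 between both mutants and 0.289 between the group means. The first 2 compare single arrays and the last compares means of 2 arrays, which scatter less, so these SDs are not on a like footing. Xist was high in both controls (3.13 to 3.98 over 3 probe sets) and low in both mutants (-4.28 to -3.13), and the Y-linked Eif2s3y, Kdm5d and Uty each had a probe set that ran the opposite way. Probe sets of each of these genes were among those called. Sex by these genes and genotype therefore divide the arrays identically and cannot be told apart for any value given here.

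The DM genes were lower in both mutant arrays in 4 of their 5 probe sets, by 2.68-fold to 6.78-fold. H2-DMa, the alpha chain of the chaperone (chromosome 17, 34119693 to 34139101), stood at 1.54 and 0.82 in controls 1 and 2 and at -1.02 and -0.82 in mutants 1 and 2 by probe set 1422527_at. Both controls lay well above both mutants, and control 1 was the highest array. The difference, Ift88-deleted minus control throughout, was -2.11 (SE 0.262, n = 2 per group), which is 4.30-fold. The second probe set, 1459872_x_at, gave 1.21, 0.46, -0.70 and -0.46 in the same order and a difference of -1.42 (SE 0.272). It shows the same order of the arrays with a smaller step, and the gap between the controls (0.75) was about as wide as in the first (0.72).

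H2-DMb2, a beta chain of the chaperone (34143229 to 34151553), showed the largest decrease of any member. Probe set 1443687_x_at was at 1.24 and 1.25 in the controls and at -1.80 and -1.24 in the mutants. The controls were alike, and the mutants differed from each other by 0.56, against a difference between groups of -2.76 (SE 0.216, 6.78-fold). Probe set 1443686_at, which is drawn from the same transcript record, was at 1.34, 1.17, -1.53 and -1.17 with a difference of -2.61 (SE 0.181, 6.10-fold). These 2 ranked 10 and 13 from the lowest of 45037 differences, and those of H2-DMa 26 and 71, which describes how the genes were picked.

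The third probe set of H2-DMb2, 1419744_at, did not follow. It was at -0.02 and 0.15 in the controls and at -0.01 and 0.01 in the mutants, so that the groups overlapped, with a difference of -0.07 (SE 0.145). All 3 probe sets carry the same gene name, and which transcripts each one reads was not analysed here. Both that were lower share a transcript record. Probe set 1419744_at is drawn from another record, which it shares with 1449580_s_at. The latter names both DM beta genes and differed by -1.76. Its lowest original value was placed in the class of 4 to 8, as was that of 1443686_at. For 1443686_at that lowest array was mutant 1, far below the controls, so the class does not compare the brightness of these 2 in the controls.

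The 2 probe sets that name both H2-DMb1 and H2-DMb2 were also lower in both mutants. Probe set 1418638_at was at 1.59, 0.68, -0.68 and -0.91 (difference -1.93, SE 0.312, 3.81-fold), and 1449580_s_at at 1.26, 0.73, -0.82 and -0.73 (difference -1.76, SE 0.211, 3.39-fold). Control 1 was the higher control in both, as for H2-DMa. Signal of the 2 beta genes (H2-DMb1 lies at 34153191 to 34160229, next to H2-DMb2) cannot be separated in these probe sets, so no value is given for H2-DMb1 alone.

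**Figure D1:**
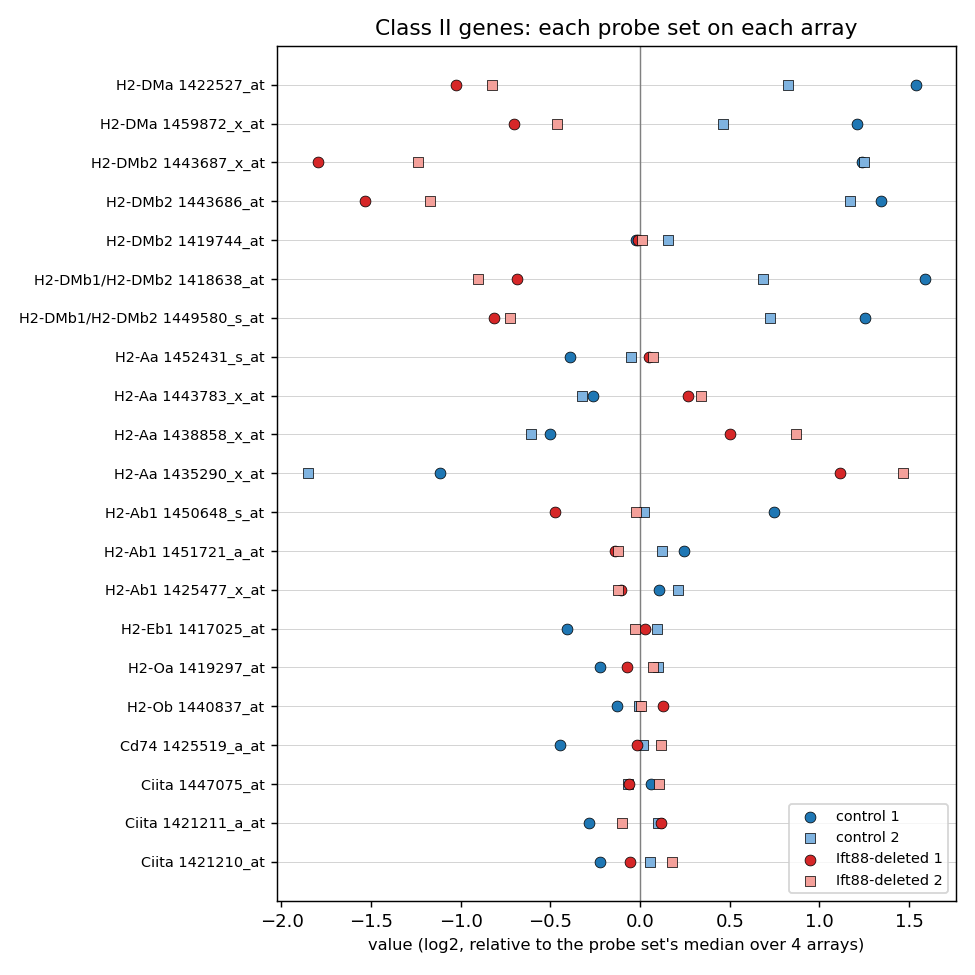
Each probe set of the class II genes on each of the 4 arrays, with the 2 probe sets shared by H2-DMb1 and H2-DMb2. The horizontal axis is the log2 value relative to the probe set's own median. Circles and squares are replicates 1 and 2, blue for control and red for Ift88-deleted. The DM probe sets other than 1419744_at have both blue points on the right and both red points on the left, and the H2-Aa probe sets have the reverse.

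The classical chains did not share one direction: H2-Aa was higher in the mutants, H2-Ab1 lower, as DM was but by less, and H2-Eb1 overlapped. H2-Aa, the alpha chain of the A molecule (34282744 to 34287823), was higher in both mutant arrays in all 4 of its probe sets, by 1.21-fold to 6.86-fold. Probe set 1435290_x_at was at -1.12 and -1.85 in the controls and at 1.12 and 1.47 in the mutants, a difference of 2.78 (SE 0.280). This is of the size of the H2-DMb2 decrease and of the opposite sign, and it ranked 9 from the highest of all probe sets. Probe set 1438858_x_at was at -0.50, -0.61, 0.50 and 0.87 (difference 1.24, SE 0.177, 2.36-fold).

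The other 2 probe sets of H2-Aa gave smaller steps. Probe set 1443783_x_at was at -0.27, -0.33, 0.27 and 0.34 (difference 0.60, SE 0.137) and 1452431_s_at at -0.39, -0.05, 0.05 and 0.07 (difference 0.28, SE 0.169). In the last, control 2 lay close to the mutants and control 1 apart from them. The 3 with the larger differences carry the suffix x_at, which Affymetrix gives to probe sets that can also bind other transcripts. The same suffix is carried by 1443687_x_at of H2-DMb2, 1459872_x_at of H2-DMa and 1425477_x_at of H2-Ab1. How far such binding enters any of these values was not tested.

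H2-Ab1, the beta chain that pairs with H2-Aa (34263227 to 34269418), was lower in both mutants in each of its 3 probe sets, by less than 2-fold. Probe set 1450648_s_at was at 0.75, 0.02, -0.48 and -0.02 (difference -0.63, SE 0.291). Control 2 and mutant 2 were nearly level here, so the difference rests on control 1 and mutant 1, and it was -0.27 with control 1 left out and -0.99 with control 2 left out. Probe set 1451721_a_at was at 0.25, 0.12, -0.14 and -0.12 (difference -0.31, SE 0.140) and 1425477_x_at at 0.10, 0.21, -0.10 and -0.13 (difference -0.27, SE 0.138). The last 2 are drawn from the same transcript record. The signs of both chains of the A molecule were thus opposite on these arrays. The H2-Ab1 differences were small, and 17.4% of all probe sets were likewise lower with the groups apart, so the sign for H2-Ab1 is not settled.

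H2-Eb1, the beta chain of the E molecule (34305867 to 34316674), showed overlapping groups, at -0.41, 0.10, 0.03 and -0.03 (difference 0.16, SE 0.204). Control 1 was the low array, and with it left out the difference was -0.10. The alpha chain partner H2-Ea, an annotated pseudogene in the C57BL/6 reference and no member, differed by -0.06 to 0.03 over 3 probe sets. H2-Eb2, a related chain and no member, was at -0.48, -0.07, 0.07 and 0.11.

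The remaining members showed small differences. H2-Oa, the DO alpha chain (34092379 to 34095234), was at -0.22, 0.10, -0.07 and 0.07 (difference 0.06, SE 0.171). H2-Ob, the DO beta chain (34238905 to 34245908), was at -0.13, -0.01, 0.13 and 0.01 (difference 0.13, SE 0.144), with the groups just apart, and its probe set was in the dimmest class. Its other probe set, which also names Gm20506, differed by 0.04. Over both DO chains the array farthest from the median was control 1 for H2-Oa.

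Cd74, the invariant chain, had 1 probe set in the brightest class, at -0.45, 0.02, -0.02 and 0.12 (difference 0.27, SE 0.198). Control 1 was the low array, the groups overlapped, and with control 1 left out the difference was 0.04. Ciita, the regulator that switches the family on (chromosome 16, 10480014 to 10531064), had 3 probe sets with differences of 0.03 (SE 0.148), 0.10 (SE 0.190) and 0.15 (SE 0.173), all with overlapping groups. Single arrays of Ciita ran from -0.28 to 0.18 around the medians, and differences within that spread are not detectable with 2 arrays a group.

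**Figure D2:**
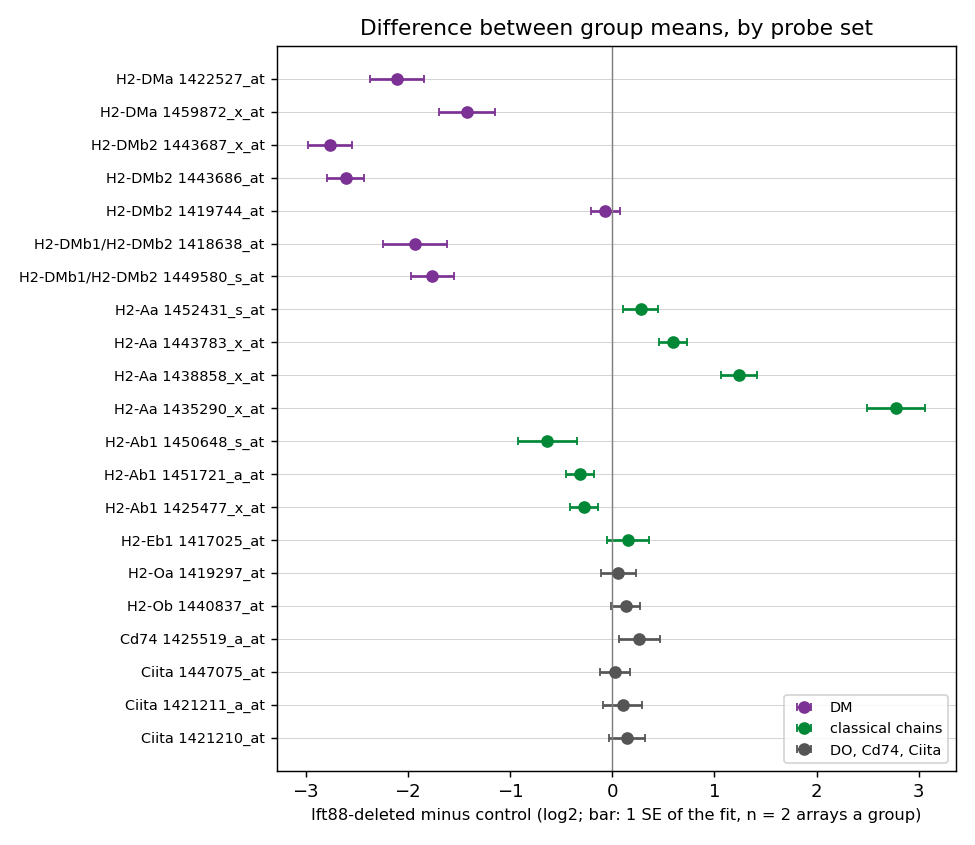
Difference between the group means for each probe set, on the log2 scale, with bars of 1 SE from the fit (n = 2 arrays a group). DM probe sets lie between -2.76 and -0.07, those of H2-Aa between 0.28 and 2.78, those of H2-Ab1 between -0.63 and -0.27, and those of DO, Cd74 and Ciita between 0.03 and 0.27.

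Over the 19 member probe sets, 7 were lower with the groups apart (4 of DM and 3 of H2-Ab1), 5 were higher with the groups apart (4 of H2-Aa and 1 of H2-Ob) and 7 overlapped. On the whole array 17.4% of the probe sets were lower and 16.2% higher with the groups apart. At least 2-fold with the groups apart were 4 members lower, all DM, and 2 higher, both H2-Aa, where 0.422% and 0.333% of all probe sets were. The members were chosen on this contrast, so nothing is read from these counts. The median difference was -2.11 over the 5 DM probe sets, 0.22 over the 8 classical probe sets and 0.00 over all probe sets.

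Within each array the DM mean minus the classical mean was 1.26 in control 1, 1.07 in control 2, -1.17 in mutant 1 and -1.04 in mutant 2. The 2 values of a group differed by at most 0.19, while the groups differed by -2.27. DM contributed most of this, with means of 1.06 and 0.77 in the controls and -1.01 and -0.74 in the mutants. The classical means were -0.20 and -0.30 against 0.16 and 0.31, carried by H2-Aa. The classical median difference of 0.22 became 0.006 when control 1 was left out and 0.43 when control 2 was, so the size of its shift is not settled by these arrays. For 2 arrays against 2 the smallest p that exact permutation (two-sided) allows is 0.333, and the choice of the DM genes fixes the direction.

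The genes around DM in the class II region of chromosome 17 did not show differences of that size. Within 500 kb on each side of the lower coordinate of H2-DMa, 44 genes other than members had 84 probe sets, with differences from -0.94 to 0.52 and a median of -0.04. None of the 84 was called by limma, and 5 had an unadjusted p under 0.05, as did 6.17% of all probe sets. The groups were apart in 22 lower and 8 higher probe sets, beside 17.4% and 16.2% over the array, and 0 were apart by at least 2-fold. Brd2, a chromatin reader whose annotated span (34112019 to 34122814) overlaps the H2-DMa gene, was at -0.10 and -0.24 in 2 probe sets. Psmb9 (-0.03) and Tap1 (-0.05 to 0.08 over 4 probe sets), which lie between DM and the classical chains and serve class I presentation, were close to 0, and the 2 probe sets of their neighbour Psmb8 were at -0.12 and -0.05.

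**Figure D3:**
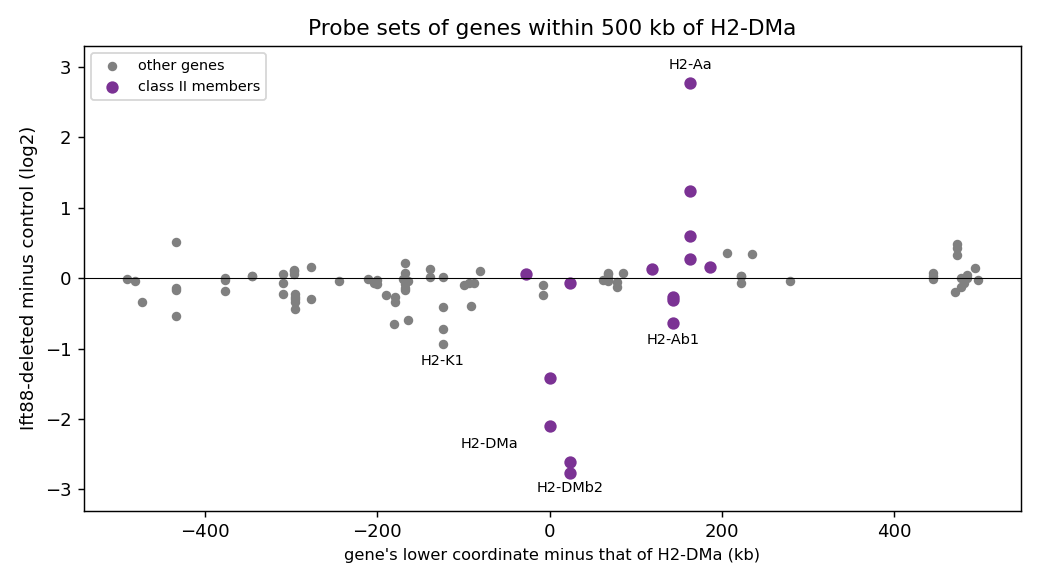
Difference between the group means (log2) for each probe set of the genes within 500 kb of H2-DMa, against the gene's lower coordinate minus that of H2-DMa in kb. Purple points are members and grey points other genes. Grey points lie between -0.94 and 0.52, while 4 purple points of H2-DMa and H2-DMb2 lie below -1 and 2 of H2-Aa above 1.

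The factors and enzymes that class II presentation draws on were compared from 5 gene lists, and limma called 0 genes in any of them, which with 2 arrays a group does not show that they did not differ. Over all 18193 genes 8 (0.044%) had a called probe set, 5 lower (0.0275%) and 3 higher (0.0165%). The 3 higher were the Y-linked Eif2s3y, Kdm5d and Uty, and Xist was among the lower, so this share holds genes that mark sex. Members were not left out of it. Together with the 10 marker lists given next, 151 genes with 256 probe sets were measured, and 10 of these probe sets had an unadjusted p under 0.05, as did 6.17% of all probe sets. Genes with several probe sets are given by the range or by each value, since these often differ in sign. Of all probe sets 49.47% had a difference below 0, and the counts below 0 of the lists stand beside that share. Of the 10 genes of the promoter-binding factors (26 probe sets, median difference 0.06, 12 below 0), Nfya, a subunit of the Y box factor, was at 0.79, 0.31 and 0.11 in 3 probe sets (adjusted p = 0.654 for the first), and Crebbp, a coactivator, from 0.09 to 0.51 in 4. Creb1, which binds the X2 box, ran from -0.79 (adjusted p = 0.685) over -0.29 to 0.07 in 6 probe sets, Rfxap, a subunit of the X box factor, was at -0.58 and -0.19, and its partner Rfx5 at 0.47.

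Of 11 measured genes of endosomal peptide loading (19 probe sets, median -0.09, 13 below 0), the protease Lgmn was at 1.05, 0.25, -0.25 and -0.72 in the 4 arrays (difference -1.14, SE 0.309, adjusted p = 0.684). The cathepsin Ctsh was at -0.48 and -0.06, Marchf1, a ligase that removes class II from the surface, at -0.16, -0.07 and 0.30, and Ctsb ran from -0.21 to 0.28 over 5 probe sets. Ctss, the protease that trims Cd74, was at -0.68, 0.97, 0.68 and -1.06, so that replicates of a genotype differed by more than the genotypes did (-0.34).

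Of 16 measured genes of class I presentation (39 probe sets, median -0.05, 25 below 0), the heavy chains H2-D1 (-1.22, SE 0.368, adjusted p = 0.708) and H2-K1 (-0.94, SE 0.207, adjusted p = 0.553) had the lowest single probe sets. Those of the folding factors Canx (-0.25, 0.11 and 0.49) and Pdia3 (-0.42 and 0.37) included the highest and also ran below 0. B2m, the shared light chain, was at -0.32 and -0.17. Of 20 measured interferon response genes (29 probe sets, median 0.06, 9 below 0), 0 probe sets had an unadjusted p under 0.05. The receptor chain Ifngr2 was at 0.505 (adjusted p = 0.808) and -0.01, Ifit1 at 0.49 and the factor Irf1, which induces Ciita, at 0.09. Jak1 was at -0.22, -0.21 and 0.16 and Cxcl9 at -0.27 and 0.15. Among 34 measured neighbours of the class II region, 54 probe sets had a median of -0.04 and 36 lay below 0, with Pfdn6 (-0.64) and Vps52 (-0.59 and -0.04) lowest and Pbx2 (0.33, 0.43 and 0.49) and Btnl2 (0.34) highest.

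By list median, markers of the cells that usually carry class II did not show the DM pattern of both controls above both mutants. In these bulk samples fewer cells of a type and less RNA per cell cannot be told apart. The list median in controls 1 and 2 and mutants 1 and 2 was -0.22, 0.08, 0.00 and 0.00 for 7 pan-leukocyte genes (Ptprc at -0.44, 1.26, 0.14 and -0.14). It was -0.14, 0.07, 0.10 and -0.07 for 12 macrophage genes and -0.09, 0.15, -0.02 and 0.04 for 7 dendritic cell genes. For 5 B cell genes it was -0.09, -0.04, 0.05 and 0.02, with Cd79a at -0.38, 0.08, -0.08 and 0.21. By median, control 1 was the lowest array for each of these lists, but single probe sets of Ptprc, Coro1a and Ms4a1 were highest there. For 3 of the 4 DM probe sets that differed, control 1 was also the highest. The part of these cells in the DM difference was not tested.

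Csf1r, the macrophage growth factor receptor, differed by 0.00 to 0.31 over 3 probe sets, with the groups overlapping in each. The neutrophil and osteoclast lists stood highest in control 2 and next highest in mutant 2, with medians of -0.47, 0.77, -0.31 and 0.31 for 5 neutrophil genes and -0.27, 0.98, -0.27 and 0.25 for 6 osteoclast genes. Erythroid genes (3 measured) were at -0.11, 0.42, -0.09 and 0.07, endothelial genes (5 measured) at -0.19, 0.22, -0.02 and 0.04 and T cell genes (4 measured) at -0.16, 0.04, -0.03 and -0.01. Since levels were subtracted, whether a marker was absent cannot be read. Over these 9 lists of other cell types 0 probe sets had an unadjusted p under 0.05. The genes with the lowest and highest differences by list were as follows. Of the pan-leukocyte genes Ptprc (-0.41 and -0.14) and Coro1a (-0.14 to -0.01 over 3 probe sets) were lowest, and Cd53 (0.03 and 0.41) and Laptm5 (-0.12 to 0.37 over 5) held the highest. Of the macrophage genes Cx3cr1 (-0.14 and 0.04) and C1qb (-0.07 to 0.10 over 3) held the lowest, and Mrc1 (0.55, SE 0.373) and Adgre1 (0.37) were highest. Among dendritic cell genes Ccr7 was at -0.20, Zbtb46 from -0.19 to 0.46 over 4 probe sets and Xcr1 at 0.12, and among B cell genes Pax5 at -0.05 and 0.01, Ms4a1 at 0.00 and 0.34 and Vpreb3 at 0.22.

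Among erythroid genes Slc4a1 was at -1.81 (SE 1.30), -1.07 and -0.08, Alas2 at -0.26 and Epb42 at -0.07 and 0.00. Among osteoclast genes Mmp9 was at -1.39 (SE 1.03) and -0.94, Acp5 at -1.36 (SE 1.15), Calcr at -0.05 and Oscar at -0.02 and 0.07. Among neutrophil genes S100a8 was at -1.03 (SE 0.859), S100a9 at -0.55 (SE 0.723), Ngp at -0.11 and Ltf at -0.01. In Mmp9, Acp5, S100a8 and S100a9 the groups overlapped. The endothelial genes Cdh5 (-0.20 and -0.06), Emcn (-0.05), Tek (0.23) and Kdr (0.22) and the T cell genes Cd3g (-0.09), Cd2 (-0.06), Cd3e (0.26) and Cd3d (0.11) completed the range. The part of any of these cells in the DM difference was not tested.

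Chondrocyte genes (22 probe sets) had a median difference of 0.01, with Comp (-0.54, adjusted p = 0.766, limma) and Hapln1 (-0.47 to -0.01 over 4 probe sets) lowest, Col9a1 at 0.00 and 0.26, Col2a1 at 0.25, Acan at 0.00 and the 3 probe sets of Sox9 at -0.09, 0.00 and 0.20.

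**Figure D4:**
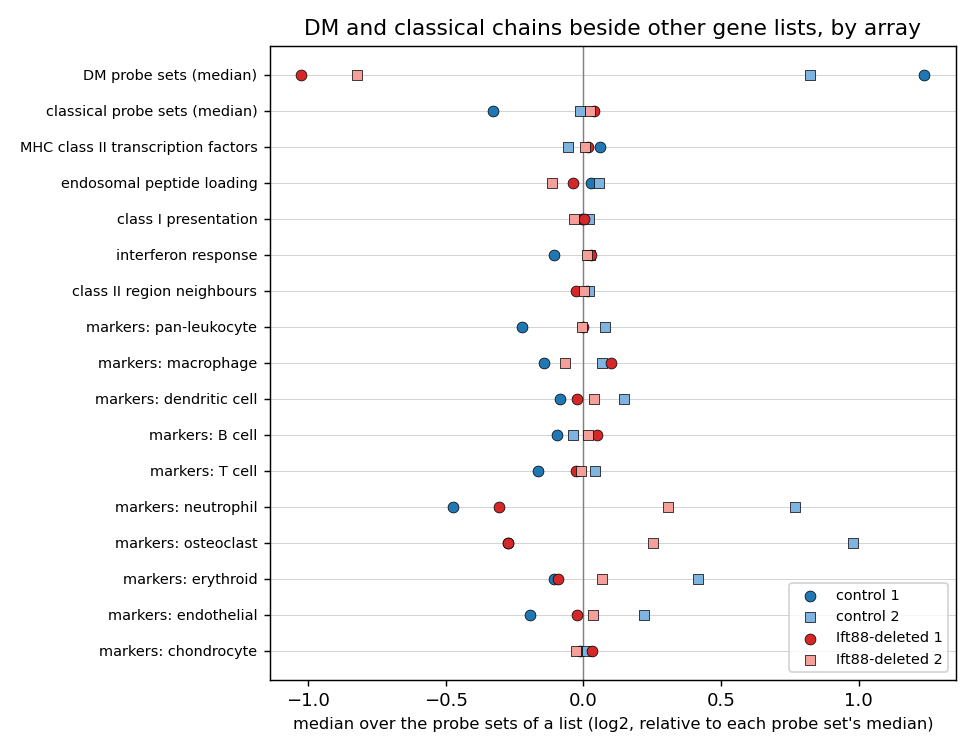
Median over the probe sets of the DM genes, the classical chains and each of the 15 gene lists, on each array (log2, relative to each probe set's median). Blue marks control and red Ift88-deleted, circles replicate 1 and squares replicate 2. The DM medians lie at 1.24 and 0.82 in the controls and -1.02 and -0.82 in the mutants, and the neutrophil, osteoclast and erythroid medians are highest in control 2.

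Likeness to a member was measured as the Euclidean distance over the 4 arrays, which describes these arrays only. The member with the largest difference was H2-Aa probe set 1435290_x_at, and the 5 nearest probe sets of other named genes were 2 of the Y-linked Uty (distances 0.69 and 1.12), Mamdc2 (0.98), Tpbg (1.03) and Mapk8 (1.03). The nearest to H2-DMb2 probe set 1443687_x_at, a reference added after the values were seen, were Sfrp5 (0.43), Gli1 (0.50), Ptch1 (0.55), Lsp1 (0.62) and Snhg14 (0.64). Gli1 and Ptch1, readouts of Hedgehog signalling, were at 1.69, 1.11, -1.34 and -1.11 and at 1.87, 1.16, -1.42 and -1.16 in these probe sets. The differences of these 5 nearest ran from -2.81 to -2.40, beside -2.76 for the reference. Nearness thus largely repeats the contrast by which the DM genes were picked. A link of any of these genes to DM was not tested.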

How the data were processed

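The authors deposited log2 values made with RMA, which the submitters' processing notes name without a version, and the table holds each probe set relative to its median over the 4 arrays (largest departure of a median from 0, 5e-07). The log base was inferred from the values. The number of arrays, 2 per group, limits the precision. The 64 control probe sets were left out. Each of the other 45037 was fitted in limma 3.58.1 (R 4.3.3) on genotype alone, with eBayes without trend (2 residual and 3.46 prior degrees of freedom) and Benjamini-Hochberg adjustment over all, and called at an adjusted p under 0.05. A brightness class was read from the number steps of the values, since numbers from 8, from 4 and from 2 upwards are stored in different steps. In the brightest class 16.04% also lay on the next coarser step. Values can thus fit too coarse a step, and some probe sets of a class may belong to a dimmer one.

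The fit was tested on simulated data, where changes of 2-fold were not called and part of those of 4-fold were missed. The members and gene lists were chosen with earlier results of these data known. Named genes are all members, a fixed set of pathway genes, and the 2 highest and 2 lowest genes of each list. Nearest genes were sought for the member with the largest difference. Some genes of the rule are not reported here. The labels call the samples biological replicates. Alternatives were gene means, renewed quantile normalization, array medians subtracted, filters by brightness class, the replicate number as a block, an adjusted p of 0.1, no moderation, treat at 0.5, and each array left out. Chosen after seeing the data were the addition of the probe sets shared by both DM beta genes, the X stretch, and the H2-DMb2 probe set as a second reference for nearest genes.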

Additional observations from a re-analysis of the deposited data

How the results depend on the processing

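The count of called probe sets was 20, and it was 2 with gene means, 5 with the brightest class only, 5 with the replicate block, 2 without moderation and 11 with treat. It ran from 9 to 12 with one array left out, in fits with fewer samples. Treat asks for a larger difference, and the cause was not tested for the other changes. Deviations of same-numbered arrays from their group means correlated at 0.102, and with 2 pairs the numbers were not taken to pair the samples. With each number once in each group, the block cannot change a difference between group means, so it is no check of the member differences. Calls among the 151 list genes were 0 in each alternative run, which with 2 arrays a group says nothing about stability. The DM median of -2.11 was -1.79 with gene means, which average in the probe set that did not move, -1.93 with the shared probe sets and -2.46 to -1.75 with one array left out. The classical median of 0.22 turned to -0.63 with the brightest class only, where 1 probe set of H2-Ab1 is left, and ran from 0.006 to 0.43 with one array left out. The DM minus classical difference of -2.27 was -2.11 with gene means and -1.46 with the brightest class only, and ran from -2.37 to -2.18 with one array left out. Of 154 member values under other settings, 8 changed sign, in 5 probe sets of H2-DMb2 (1419744_at), H2-Eb1, H2-Oa and Ciita. The values with the replicate block are among the 154 and could not differ.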

Other observations

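Class I heavy chain genes of the same complex were lower in part of their probe sets. H2-K1 was at 0.66, 0.29, -0.29 and -0.64 in controls 1 and 2 and mutants 1 and 2 by probe set 1425336_x_at, at -0.72 and -0.42 as differences in 2 others and at 0.02 in the last. H2-D1 had 9 probe sets, all below 0, from -1.22 to -0.05, and the lowest, 1426324_at, was at 1.45, 0.32, -0.32 and -0.36, so that control 1 carried much of it. None passed over all probe sets (limma, adjusted p = 0.540 or more). These genes have near-identical copies, and most of their probe sets carry the suffix x_at.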
